A study of Mus musculus with 2 samples.

Results

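The members described here are the cytochrome P450 genes of the clustered mouse subfamilies Cyp2a to Cyp2j, Cyp3a, Cyp4a and Cyp4f. They were chosen by gene symbol among protein-coding genes on chromosomes 1 to 19 of GRCm38. The choice used no measured value, but earlier results of these data were known when it was made. The rule gave 68 genes of the 18573 protein-coding genes that overlap a window of the table. Genes that lie in identical windows were counted as 1 locus, which left 63 loci of 15169. Their bodies overlap 86 windows of 50 kb, and 84 of these are among the 43941 windows analysed.

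Promoter contacts were measured on both parental alleles of F121-6, a female hybrid mouse embryonic stem (ES) cell line that carries 1 set of chromosomes from strain 129 and 1 from Mus musculus castaneus (Cas). The cells were cultured with LIF on a feeder layer of inactivated mouse embryonic fibroblasts. Promoter Capture Hi-C joins DNA ends that lie close together in fixed nuclei and then enriches the joined fragments that hold a promoter, here with RNA baits against HindIII fragments of 22225 promoters. Both samples, replicates 1 and 2, belong to a single group, and the table holds a pooled value per allele. There is therefore no spread between replicates, and every comparison below sets 129 against Cas within the pooled libraries of 1 cell line. The table holds contacts and no expression, so neither the identity of the cells nor the activity of a P450 gene could be checked with it.

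Cytochrome P450 enzymes are haem proteins of the endoplasmic reticulum that insert an oxygen atom into drugs, steroids, fatty acids and other lipids, with electrons passed on by the reductase Por. The genes covered here are known mainly from liver, kidney, lung, gut and nasal tissue, where the nuclear receptors Nr1i2, Nr1i3 and Ppara induce many of them. They arose by tandem duplication, so neighbours within a cluster can be close copies in sequence. ES cells are not a tissue in which these enzymes are known to act.

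Genes within 1 Mb of each other were grouped into 7 clusters. The Cyp2a/2b/2f/2g cluster on chromosome 7 (25897658 to 27133660) has 11 genes, and the Cyp2c cluster on chromosome 19 (39006940 to 40187286) has 14. On chromosome 4 lie the Cyp2j cluster (96042660 to 96664171) with 7 genes and the Cyp4a cluster (115242044 to 115622507) with 8. The Cyp3a cluster on chromosome 5 (145345149 to 146114978), the Cyp2d cluster on chromosome 15 (82370527 to 82794452) and the Cyp4f cluster on chromosome 17 (32452697 to 32947415) have 8 genes each. Alone stand Cyp2e1 on chromosome 7, Cyp2c23 on chromosome 19, Cyp3a13 on chromosome 5 and Cyp4f18 on chromosome 8. Positions are those of GRCm38, the assembly called mm10 in the submitters' processing notes.

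The results turn on a few genes whose promoters are close copies of a neighbour's, so those promoters are shown first. Each runs 5′ to 3′ from 250 bases before to 50 bases after the annotated start, as RefSeq gives it on GRCm38.p6. For some genes, Cyp2b9 and Cyp2b13 among them, that start lies inside the gene body that was placed on the windows. Capitals mark bases that an end-to-end alignment did not match to the partner named. The promoters of Cyp3a41a (chr5:145720087-145720386, minus strand) and Cyp3a41b (chr5:145584681-145584980, minus strand) were compared with each other and were 97.0% identical. That of Cyp3a44 (chr5:145805825-145806124, minus strand) was compared with Cyp3a41a and was 93.0% identical.
Cyp3a41a: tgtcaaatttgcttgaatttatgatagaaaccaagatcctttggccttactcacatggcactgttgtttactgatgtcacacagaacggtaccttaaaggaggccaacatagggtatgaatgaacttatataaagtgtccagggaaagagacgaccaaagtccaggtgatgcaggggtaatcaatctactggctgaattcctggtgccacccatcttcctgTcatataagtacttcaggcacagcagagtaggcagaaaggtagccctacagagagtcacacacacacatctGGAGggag
Cyp3a41b: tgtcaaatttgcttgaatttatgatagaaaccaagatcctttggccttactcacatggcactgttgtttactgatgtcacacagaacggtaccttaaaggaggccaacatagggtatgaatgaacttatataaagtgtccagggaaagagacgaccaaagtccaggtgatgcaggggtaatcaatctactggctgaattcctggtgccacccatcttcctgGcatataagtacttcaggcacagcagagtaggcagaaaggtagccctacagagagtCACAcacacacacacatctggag
Cyp3a44: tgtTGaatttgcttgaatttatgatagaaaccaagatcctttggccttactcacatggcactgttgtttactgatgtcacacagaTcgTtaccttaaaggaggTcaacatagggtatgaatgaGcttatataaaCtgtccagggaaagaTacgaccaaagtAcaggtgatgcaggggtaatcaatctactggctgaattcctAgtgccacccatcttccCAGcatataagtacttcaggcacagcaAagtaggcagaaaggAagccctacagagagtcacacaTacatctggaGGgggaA

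A second pair of close copies in the same cluster is Cyp3a25 (chr5:146009568-146009867, minus strand) and Cyp3a59 (chr5:146079008-146079307, plus strand), at 96.3% identity. On chromosome 7, the promoters of Cyp2b9 (chr7:26173159-26173458, plus strand) and Cyp2b13 (chr7:26061245-26061544, plus strand) were 99.3% identical and differed in 2 bases.
Cyp3a25: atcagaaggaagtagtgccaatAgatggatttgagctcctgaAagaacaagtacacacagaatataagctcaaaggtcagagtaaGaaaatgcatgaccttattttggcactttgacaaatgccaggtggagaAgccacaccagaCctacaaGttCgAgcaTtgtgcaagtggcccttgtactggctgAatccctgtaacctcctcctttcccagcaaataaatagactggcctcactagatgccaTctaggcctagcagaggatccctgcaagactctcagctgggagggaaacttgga
Cyp3a59: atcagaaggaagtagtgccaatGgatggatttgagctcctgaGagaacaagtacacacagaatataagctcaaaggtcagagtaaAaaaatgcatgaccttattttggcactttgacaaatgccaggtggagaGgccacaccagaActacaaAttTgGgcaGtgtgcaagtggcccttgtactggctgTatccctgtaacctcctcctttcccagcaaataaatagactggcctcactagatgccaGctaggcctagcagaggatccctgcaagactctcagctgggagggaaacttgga
Cyp2b9: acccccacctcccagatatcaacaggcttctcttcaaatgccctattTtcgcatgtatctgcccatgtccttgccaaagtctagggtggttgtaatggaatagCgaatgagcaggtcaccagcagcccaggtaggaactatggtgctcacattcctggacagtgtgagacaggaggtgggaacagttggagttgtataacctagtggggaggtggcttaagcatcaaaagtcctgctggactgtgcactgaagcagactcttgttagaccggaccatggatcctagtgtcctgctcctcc
Cyp2b13: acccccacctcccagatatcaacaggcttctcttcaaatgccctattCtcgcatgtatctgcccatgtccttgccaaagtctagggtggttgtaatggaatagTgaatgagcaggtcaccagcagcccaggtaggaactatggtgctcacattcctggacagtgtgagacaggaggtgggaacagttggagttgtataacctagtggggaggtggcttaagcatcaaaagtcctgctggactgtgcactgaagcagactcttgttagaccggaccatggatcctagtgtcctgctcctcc

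The promoter of Cyp2j11 (chr4:96348631-96348930, minus strand) is shown for contrast, since its window had the widest allelic difference among P450 windows with 100 or more interactions. Its closest match among the members, Cyp2j12, was only 56.8% identical. Promoters of members from different clusters had a median identity of 49.9% in the same alignment. The capitals in Cyp2j11 mark the letters AAGCTT, the HindIII site.
Cyp2j11: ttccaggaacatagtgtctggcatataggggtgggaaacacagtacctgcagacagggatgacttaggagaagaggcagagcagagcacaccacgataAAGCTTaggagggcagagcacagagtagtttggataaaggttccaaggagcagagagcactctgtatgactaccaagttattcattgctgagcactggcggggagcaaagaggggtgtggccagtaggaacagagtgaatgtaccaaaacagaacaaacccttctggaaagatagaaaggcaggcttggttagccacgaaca

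Across the 84 P450 windows, 83406 interactions were on 129 and 59159 on Cas. The 129 share was 58.5% (exact Clopper-Pearson 95% interval 58.2 to 58.8%), against 57.6% over all windows of chromosomes 1 to 19. Intervals cover counting error only, since amplified reads are not separate molecules and an interaction can be counted at both of its ends. The interval is thus narrower than the true uncertainty, and the share without a single cluster ran from 57.8% to 59%. Count ratios below are log2((129 + 1)/(Cas + 1)) minus the median of all windows, 0.45, so that 0 stands for the usual ratio of both alleles. On that scale the median P450 locus lay at 0.04 (quartiles -0.19 and 0.16), and the median of all protein-coding loci at -0.03 (quartiles -0.17 and 0.11). Of the 61 P450 loci with 10 or more interactions, 33 were above 0 and 28 below. As a group, the P450 loci were close to the usual ratio of both alleles.

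Calls rested on a two-sided beta-binomial test against the 129 share of all windows, which allows for the spread between loci or windows, with Benjamini-Hochberg adjustment over all of them and a threshold of 0.05. It called 2 of the 61 P450 loci, Cyp3a44 towards 129 and Cyp3a41a towards Cas. In the background, 1.39% of all 15094 loci tested were called, 1.01% towards 129 and 0.378% towards Cas. Among windows, 3 of 81 P450 windows were called, 1 towards 129 and 2 towards Cas. Of the 25296 tested windows that hold a protein-coding gene, 0.85% were called, 0.676% towards 129 and 0.174% towards Cas, and of all windows 0.944%. All 3 called windows had under 100 interactions. Among tested windows with 10 to 99 interactions, 3 of 16 P450 windows were called, and 21 of 244 of all protein-coding windows, or 8.61%. The counts of members called are small, and the share called was higher at low counts in the background too.

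At 100 or more interactions, the beta-binomial test called 0 of 54 P450 loci and 0 of 65 windows. In each case 3 had an unadjusted p below 0.05, and the exact binomial test, which allows for counting error alone, called 27 of each. By that test 67.2% of all loci and 51.4% of all windows were called. Centred ratios of these loci ran from -0.73 at Cyp2c37 to 0.94 at Cyp2j11. No P450 window with 100 or more interactions differed 2-fold or more from the usual ratio, whereas 8 of the 16 with 10 to 99 did. Among protein-coding windows, 2.42% of all those tested and 46.7% of those with 10 to 99 interactions differed by that much. At low counts the P450 share was thus near that of other genes.

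**Figure D1:**
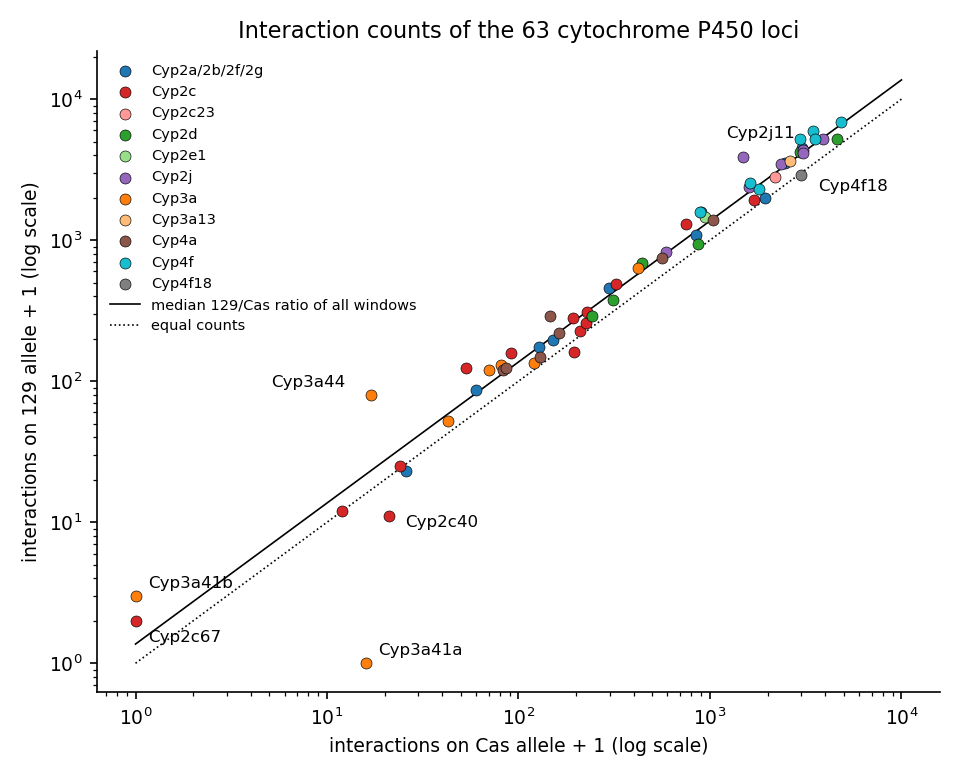
Interaction counts of the 63 P450 loci on Cas (horizontal) and 129 (vertical), each plus 1 on log scales, coloured by gene cluster. Most loci lie along the solid line, the median ratio of all windows, while Cyp3a44 and Cyp3a41a stand apart at low counts on opposite sides of it.

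P450 windows had few interactions for windows with genes. The median P450 window had 194 interactions on 129 and 147.5 on Cas. The median window with a protein-coding gene had 1030 and 756. Under 100 interactions in total were found in 19 of 84 P450 windows, or 22.6%, against 1.35% of windows with a protein-coding gene. These 19 windows lay in the Cyp3a cluster (9 of 14 windows), the Cyp2c cluster (7 of 21), the Cyp2a/2b/2f/2g cluster (2 of 12) and the Cyp4a cluster (1 of 8). The count of a window can depend on how many of its fragments were baited, among other things, and which P450 promoters had baits is not known from the files. The part of the baits in these counts was not tested.

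The clusters differed in how their counts compared with their surroundings. The median P450 window had 77 interactions in the Cyp3a cluster against 843.5 in the 20 windows within 500 kb on either side, and 160 against 1145 in the Cyp2c cluster. The Cyp4a cluster had 283 against 4022.5, Cyp2a/2b/2f/2g 1313 against 3738 and Cyp2d 1465.5 against 4501. Only in the Cyp2j and Cyp4f clusters was the P450 median higher than the flanks, at 1676.5 against 803 and 4100 against 2238.5. These are medians of windows in pooled libraries and carry no test.

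In the Cyp3a cluster, whose best known member Cyp3a11 is the main drug-metabolising Cyp3a enzyme of mouse liver, 1150 interactions were on 129 and 761 on Cas. The 129 share of 60.2% (95% interval 57.9 to 62.4%) was the same to 3 digits as the share of its flanks. Single windows departed from it in both directions. The window with the start of Cyp3a44 (145800001 to 145850000) had 51 interactions on 129 and 0 on Cas (beta-binomial adjusted p = 7.27e-06). The exact 95% interval puts it at least 13.3-fold higher on 129, and a floor of 3 interactions for Cas gives 17-fold. The window with the start of Cyp3a41a (145700001 to 145750000) had 0 on 129 and 15 on Cas (beta-binomial adjusted p = 0.00671). It was at least 3.59-fold higher on Cas by the exact interval, and 5-fold with the floor of 3 for 129. With a null share of 0.5 in place of 57.6%, the spread between windows was estimated anew. The Cyp3a41a window was then not called (beta-binomial adjusted p = 0.214). Both genes are known for expression in female liver. The starts of the genes with opposite calls thus lie 2 windows apart, with promoters of 93.0% identity. The promoter most alike to that of Cyp3a44 was, however, that of Cyp3a16, at 93.4%, which was also 92.4% identical to that of Cyp3a41a. The Cyp3a16 start window had 42 interactions on 129 and 33 on Cas and was not called.

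Counts in the other windows of these genes were also low. The next window of Cyp3a44 (145750001 to 145800000) had 28 on 129 against 16 on Cas, a centred ratio of 0.32. The other window of Cyp3a41a (145650001 to 145700000) had no interaction on either allele and so gives no ratio. Summed over both windows, Cyp3a44 had 79 interactions on 129 and 16 on Cas (beta-binomial adjusted p = 0.0169 over loci), and Cyp3a41a had 0 and 15 (adjusted p = 0.00325). The spread was also estimated separately in bands by count, and the lowest band of loci ran from 10 to 3662 interactions. The Cyp3a44 locus was then no longer called (beta-binomial adjusted p = 0.123), while its start window was. That band includes loci far deeper than Cyp3a44 and Cyp3a41a, and the spread of loci with under 100 interactions alone was not estimated. With a null share of 0.5 neither locus was called (beta-binomial adjusted p = 0.145 for Cyp3a44 and 0.142 for Cyp3a41a).

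The window of Cyp3a41b (145550001 to 145600000), the near-copy of Cyp3a41a, had only 2 interactions on 129 and 0 on Cas, too few to test. The start window of Cyp3a25 (146000001 to 146050000) had 14 interactions on 129 and 0 on Cas, but missed the threshold (beta-binomial adjusted p = 0.149). By the exact interval it was at least 3.32-fold higher on 129, and the floor of 3 for Cas gives 4.67-fold. The body window of Cyp3a25 had 37 on 129 and 42 on Cas. The start window of Cyp3a59, the near-copy of Cyp3a25, had 63 and 52. Of 81 P450 windows with 10 or more interactions, 3 had none on 1 allele, and all 3 were start windows of this cluster. This was so in 16 of the 25296 windows with a protein-coding gene, or 0.0633%, these 3 included. The 3 windows had 14 to 51 interactions. Of the tested windows, 16 of the P450 windows and 244 of those with a protein-coding gene had 10 to 99 interactions. The share with none on 1 allele was not computed at like counts.

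The remaining Cyp3a windows had counts on both alleles. Cyp3a57 had 462 on 129 and 302 on Cas in its start window, and 172 and 118 in the next. Cyp3a16, a gene known from fetal liver, had 42 and 33 in its start window and 92 and 86 in the other. Cyp3a11 had 120 and 69. The body window of Cyp3a59 had 67 and 28, a centred ratio of 0.78 that was not called (beta-binomial adjusted p = 1). Counts were highest at Cyp3a57, at 1 edge of the cluster, and lowest at Cyp3a41b and Cyp3a41a. Cyp3a13, which lies apart on the same chromosome, had 3643 interactions on 129 and 2602 on Cas, which gave a 129 share of 58.3% (57.1 to 59.6%).

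**Figure D2:**
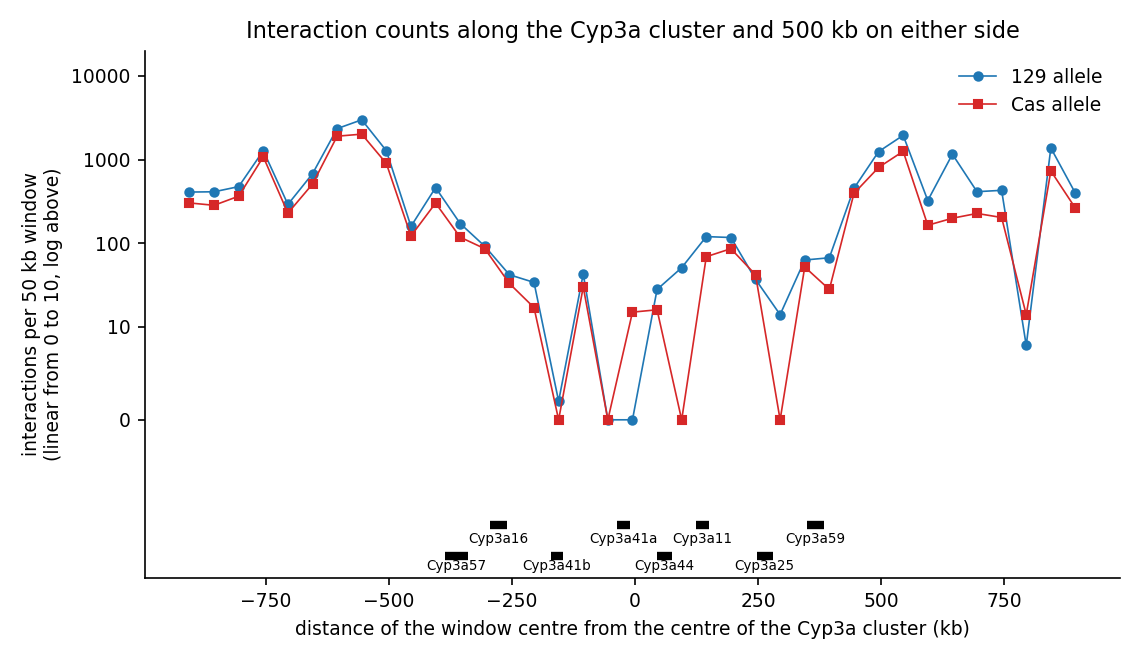
Interactions per 50 kb window on 129 (circles) and Cas (squares) against the distance of the window centre from the centre of the Cyp3a cluster in kb, with gene bodies as bars below; the count axis is linear to 10 and logarithmic above. The Cyp3a44 start has 51 interactions on 129 and 0 on Cas, and the Cyp3a41a start 0 and 15, while the median flanking window has 843.5 on both alleles together.

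The Cyp2a/2b/2f/2g cluster holds Cyp2b10, the classic target of the nuclear receptor Nr1i3, and Cyp2a5, a coumarin hydroxylase. Its windows had 13691 interactions on 129 and 9797 on Cas, which gave a 129 share of 58.3% (57.7 to 58.9%). The third called window lies here, at the start of Cyp2b9, a gene known for expression in female liver (26150001 to 26200000). Only 16 interactions were on 129 and 48 on Cas, 3-fold higher on Cas (exact 95% interval 1.67 to 5.66-fold, beta-binomial adjusted p = 0.0354). With the spread estimated separately in bands by count, here windows with 10 to 495 interactions, the beta-binomial adjusted p was 0.189. With a null share of 0.5 it was 0.876.

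Windows beside the Cyp2b9 start differed from it and from each other. The next window of Cyp2b9 (26200001 to 26250000) had 443 on 129 and 247 on Cas, with a centred ratio of 0.39. The window on the opposite side (26100001 to 26150000), which has no protein-coding gene, had 86 and 189 and was also called towards Cas (beta-binomial adjusted p = 0.0248). The window of Cyp2b13 (26050001 to 26100000) had 22 and 25, with a centred ratio of -0.63 that was not called. The locus of Cyp2b9 as a whole was not called. From Cyp2b13 to the start of Cyp2b9, 3 windows in a row thus had centred ratios below 0, of -0.63, -1.58 and -1.98.

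The other loci of this cluster had centred ratios between -0.40 and 0.37. The highest count was at Cyp2b10, with 4534 interactions on 129 and 3008 on Cas over 2 windows. Cyp2f2, which activates naphthalene in lung airway cells, had 3534 and 2460. Cyp2b23 had 1593 and 901, and Cyp2b19, a skin P450, had 1093 and 843. Cyp2g1, an enzyme of the nasal mucosa, and Cyp2a5 share a window with 2001 and 1929. That nearly equal split gave a centred ratio of -0.40 and was not called. Cyp2a4 had 86 and 59, Cyp2a22 194 and 150, and Cyp2a12 175 and 127. Farther along chromosome 7, Cyp2e1, the ethanol-inducible P450, which shares its window with Syce1, had 1448 and 945, a share of 60.5% (58.5 to 62.5%).

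The Cyp2c genes encode enzymes that act on drugs and on arachidonic acid. They make up the largest cluster, yet its 21 windows held only 4655 interactions on 129 and 3533 on Cas. Counts were highest at both ends, with 1921 on 129 and 1706 on Cas at Cyp2c55 and 1302 and 751 at Cyp2c70, which makes muricholic bile acids. Between them, no window with a P450 gene had more than 298 interactions in total. The lowest was Cyp2c67, with 1 on 129 and 0 on Cas. Cyp2c68 had 24 on 129 and 23 on Cas over 2 windows, Cyp2c40 10 and 20, and Cyp2c69 11 and 11, of which a window with 3 and 9 is common to the last pair.

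No Cyp2c locus or window was called, and 4 of the 20 windows tested differed 2-fold or more from the usual ratio. They had between 10 and 30 interactions. The widest in each direction were a window of Cyp2c39 (39500001 to 39550000) with 24 on 129 and 6 on Cas, and the window shared by Cyp2c40 and Cyp2c69 with 3 and 9. At higher counts, Cyp2c66 had 123 and 52 (beta-binomial adjusted p = 0.843) and Cyp2c37 had 159 and 193 over 2 windows (adjusted p = 0.747). Cyp2c39 and Cyp2c38 overlap and share 3 windows, so their counts are not separate. Cyp2c23, an arachidonic acid epoxygenase gene outside the cluster, had 2820 and 2193, a share of 56.3% (54.9 to 57.6%).

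The Cyp2j genes encode epoxygenases of arachidonic acid. The cluster had 19079 interactions on 129 and 12152 on Cas, the highest 129 share of the 7 clusters at 61.1% (60.5 to 61.6%), beside 63.2% in its flanks. The widest difference was in the start window of Cyp2j11 (96300001 to 96350000), with 3809 on 129 and 1414 on Cas. The 129 count there was 2.69-fold higher (exact 95% interval 2.53 to 2.87-fold), and the centred ratio of 0.98 was not called (beta-binomial adjusted p = 0.459, and 0.139 for the locus). The other Cyp2j windows lay between -0.04 and 0.32. They included Cyp2j12 with 4365 and 3059, the window of Cyp2j6 and Cyp2j9 with 4124 and 3073, and that of Cyp2j5, a gene of kidney and liver, with 2938 and 1984. Among the Cyp2j loci, Cyp2j13 had the lowest count, with 825 and 585. The single window with the fewest was the other one of Cyp2j11 (96250001 to 96300000), with 100 and 75.

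The Cyp4a enzymes hydroxylate the end carbon of fatty acids, and Cyp4a10 and Cyp4a14 are classic targets of Ppara. Their cluster had 2953 interactions on 129 and 2153 on Cas, which gave a 129 share of 57.8% (56.5 to 59.2%). Cyp4a30b and Cyp4a14 share the window with the most interactions, 1400 and 1041. Cyp4a10 had 218 and 162, Cyp4a12b 123 and 85, Cyp4a31 147 and 129 and Cyp4a32, in a window with Cyp4b1, 751 and 558. The widest differences were at Cyp4a29, with 291 and 145 over 2 windows, and in the single window of Cyp4a12a alone (115300001 to 115350000), with 23 and 33. Neither was called.

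The Cyp4f enzymes act on leukotrienes and other fatty acids. The cluster on chromosome 17 had 19280 interactions on 129 and 12593 on Cas, and 60.5% thus on 129, beside 58.1% in its flanks. Cyp4f15 and Cyp4f40 share a window with 5215 and 3541, and Cyp4f17 and Cyp4f16 share one with 5180 and 2943. Among the loci of the cluster, Cyp4f37 had the lowest count and the widest difference, with 1594 and 888 and a centred ratio of 0.39. Cyp4f14 and Cyp4f13, in 1 window, had 2547 and 1623, and Cyp4f39 had 2289 and 1811. All 7 windows lay between -0.11 and 0.39, and none was called.

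Cyp4f18, the member on chromosome 8, was the only single gene or cluster with more interactions on Cas, 2914 on 129 and 3005 on Cas. Its 129 share was 49.2% (47.9 to 50.5%), close to 49.1% in its 9 flanking windows. The start window (72000001 to 72050000) had 1103 and 1514, with a centred ratio of -0.91, and the other window (71950001 to 72000000) 1811 and 1491. The locus was not called (beta-binomial adjusted p = 1). Flanking windows with other genes had a median centred ratio of -0.42 (range -0.86 to 1.53), and the Cyp4f18 locus over both its windows one of -0.50.

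The Cyp2d cluster, whose enzymes act on drugs and steroids, was the one with the lowest 129 share of the 7. It had 11773 interactions on 129 and 9425 on Cas, or 55.5% (54.9 to 56.2%), beside 57.5% in its flanks. Cyp2d22 and Cyp2d11 lie in the window with the most interactions of all P450 windows, 5252 and 4618, which also holds Ndufa6, a gene of respiratory complex I. Cyp2d40 and Cyp2d26 share one with 4232 and 2950. Cyp2d9 had the lowest count, 291 and 242. Cyp2d34 had 934 and 863, Cyp2d10 691 and 443, and Cyp2d12 373 and 309. Centred ratios ran from -0.34 to 0.19, and none was called.

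**Figure D3:**
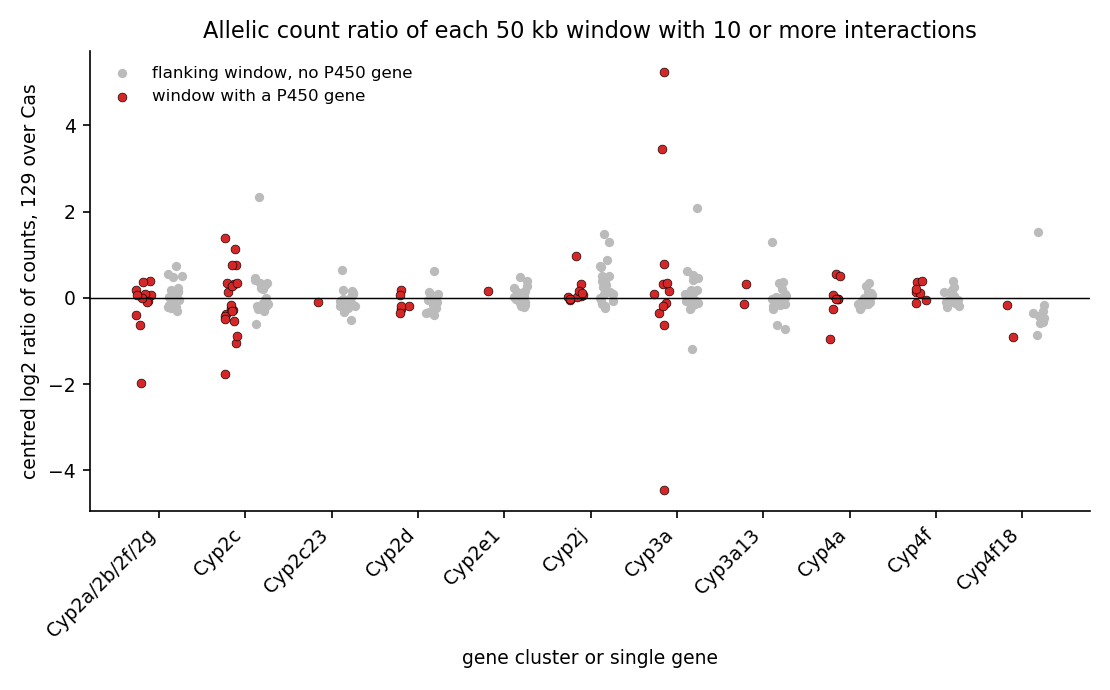
Centred log2 ratio of 129 over Cas counts for each 50 kb window with 10 or more interactions, in each gene cluster or single gene, for windows with a P450 gene (red) and windows within 500 kb on either side (grey). The Cyp3a windows reach from -4.45 to 5.25 and the Cyp2c windows from -1.77 to 1.38, while those of Cyp2d and Cyp4f stay between -0.34 and 0.39.

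Promoter likeness was not part of the rule and was set beside the counts. RefSeq promoter sequences were matched for 56 of the 68 genes, and the start window of 54 of these was in the table. For each gene, the identity of its promoter to the most alike promoter of another member was computed. The 26 genes below 70% identity had a median of 4135 interactions in the start window (range 1 to 8756). The 15 genes at 70 to 90% had a median of 298 (12 to 9870), and the 13 genes at 90% or more a median of 51 (2 to 3930). Genes with close copies thus had lower counts, with Cyp2a5 (97.7% identical to Cyp2a4, 3930 interactions in the window it shares with Cyp2g1) and Cyp2d11 (84.5% identical to Cyp2d9, 9870 in a window that also holds Ndufa6) among the exceptions at high counts. Cyp2c67, at 66.6% identity and 1 interaction, was an exception at low counts.

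Over the 54 genes, Spearman's rho of identity and start-window count was -0.68. In the 51 genes whose start window holds no other protein-coding gene, it was -0.74. These values describe genes that share windows, clusters and libraries, and the bands of identity were chosen after the values were seen. Of the 13 genes with the most alike promoters, 5 of the 12 with 10 or more interactions differed 2-fold or more between alleles from the usual ratio, against 0 of 25 below 70%. The 5 were Cyp3a44, Cyp3a41a, Cyp3a25, Cyp2b9 and Cyp2c69, which had 8 interactions on 129 and 2 on Cas. All 5 had under 100 interactions, so likeness and low count cannot be told apart here. The sources used here do not say how reads that match several copies were handled, and its part in these counts was not tested.

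Exact repeats between promoters were more frequent among the members than in general. A run of 50 identical bases was shared with the promoter of another gene, on either strand, by 22 of the 56 P450 genes, or 39.3%, against 20.7% of 16456 protein-coding genes with a promoter sequence. The HindIII letters AAGCTT, which read the same on both strands, were found in 11 of the 56 P450 promoters, or 19.6%, against 7.65% of all. Those 11 included Cyp2j11, Cyp2j12, Cyp2j6, Cyp2d9, Cyp2d10 and Cyp2d11. They did not include any Cyp3a or Cyp2b promoter. A match in these 300 bases is a description of the letters, not of which fragments were captured.

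**Figure D4:**
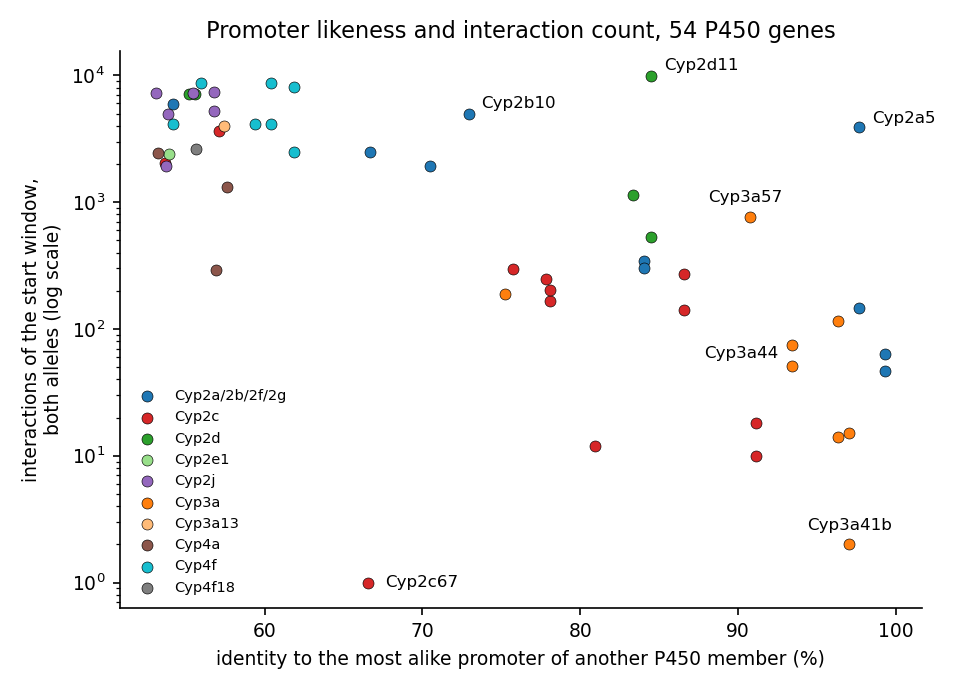
Summed interactions of the start window on a log scale against the percent identity of the promoter to its most alike counterpart among the P450 members, for 54 genes coloured by cluster. Most genes below 70% lie above 1000 interactions, and most at 90% or more lie below 100.

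Contact distance was compared in the 73 P450 windows where both alleles had at least 10 interactions. Each window has a single distance per allele, so no test was possible, and no source used here says whether it is a mean or a median. Contacts of P450 windows spanned a median of 278 kb for 129 and 259 kb for Cas. In the 25205 windows with a protein-coding gene the medians were 183 kb and 187.5 kb, with no match for depth. At 1000 or more interactions P450 windows had the shorter medians, 107 and 107.5 kb against 124 and 128 kb. Below 1000 they had the longer ones, 1088.5 and 757 kb against 729 and 711.5 kb. Across depths, the log2 of the 129 distance over the Cas distance had a median of 0.05 in P450 windows (quartiles -0.34 and 0.43). In windows with a protein-coding gene the median was 0 (quartiles -0.28 and 0.25). Contacts reached farther on 129 in 39 P450 windows and farther on Cas in 33, and 1 window had equal distances. Neither allele was the longer one throughout.

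Single windows differed more widely. A difference of 2-fold or more was found in 20 of the 73 windows, 11 longer on 129 and 9 longer on Cas, or 27.4%, against 12.7% of windows with a protein-coding gene. At 1000 or more interactions the shares were 14.7% of 34 P450 windows and 7.91% of 17472 windows. Distances rest on fewer interactions in low-count windows, and depth moved with the share in both sets.

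Among windows where both alleles had at least 20 interactions, the 3 largest ratios towards Cas were in the Cyp3a cluster. Contacts of the Cyp3a11 window spanned 894 kb on the 129 allele and 5181 kb on the Cas allele, a body window of Cyp3a16 977 and 4455 kb, and the second window of Cyp3a57 172 and 610 kb. Of the 9 Cyp3a windows with a distance on both alleles, 6 were longer on Cas and 3 on 129. Towards 129, the window of Cyp2c65 had 1424 kb for 129 against 87 kb for Cas. The window of Cyp4a12a had 5444 and 390 kb, from 23 and 33 interactions. The window of Cyp4a30b and Cyp4a14 had 105 and 16 kb from 1400 and 1041 interactions, with a count ratio of -0.03. That last window had the widest distance ratio among P450 windows with 1000 or more interactions, and its counts were near the usual ratio. In the Cyp4f cluster, 6 of 7 windows were longer on Cas and 1 was equal, with medians of 97 kb for 129 and 112.5 kb for Cas.

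**Figure D5:**
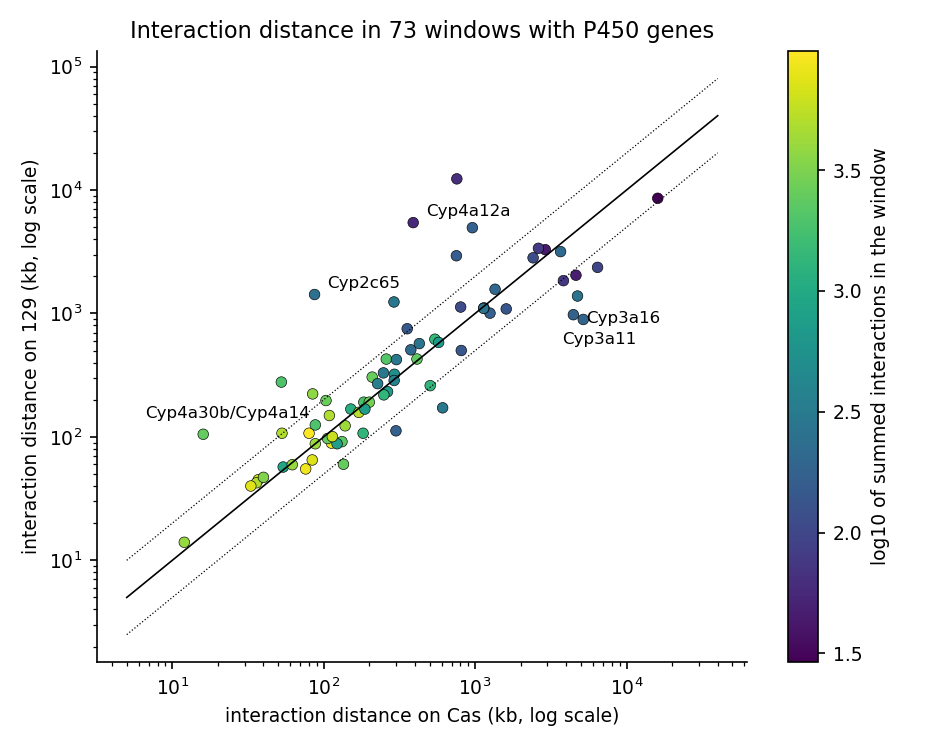
Interaction distance in kb on Cas (horizontal) and 129 (vertical), both on log scales, for the 73 P450 windows where both alleles had at least 10 interactions, coloured by log10 of the summed count; the solid line marks equal distances and the dotted lines a 2-fold difference. Windows beyond the dotted lines lie on both sides and are mostly of low count.

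Start windows and the remaining P450 windows were also compared. The 51 windows with an annotated start had a median of 462 interactions on 129 and 302 on Cas, and the other 33 had 139 and 121. Median distances were 210 and 136.75 kb in start windows and 570 and 390 kb in the others. Of the P450 windows tested, 49 held a start and 32 did not. All 3 called windows held a start, as did 7 of the 8 windows that differed 2-fold or more. No difference between start windows and the others was tested. Starts were taken from the RefSeq promoter sequences, so the other windows include those of the 12 genes with no such sequence.

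Other genes of the same pathways are given by list. The 28 P450 genes outside the clustered subfamilies had a median locus count of 5876. Their median centred ratio was 0.02 (range -0.37 to 0.88). The beta-binomial test called 0 of them, with 2 at an unadjusted p below 0.05, and the exact binomial test called 19. Among them, Cyp4b1 shares its locus with the member Cyp4a32, so that locus counts in both groups. Of 30 regulators of P450 genes listed, 25 were in the table, with centred ratios from -0.33 at Nr0b2, a repressor of bile acid synthesis genes, to 0.28 at the bile acid receptor Nr1h4. Ppara had 2988 interactions on 129 and 2517 on Cas. None of the 25 was called by the beta-binomial test or had an unadjusted p below 0.05, and the exact binomial test called 14. Of 21 genes for electron transfer and haem supply, 19 were in the table, from -0.48 at Alas1, which makes the first haem precursor, to 0.49 at Alad, which acts next. Por had 4320 and 3139. The same counts were 0 and 0 for this list, and the exact binomial test called 15. Of all loci tested, the exact binomial test called 67.2% and the beta-binomial test 1.39%.

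Among enzymes that conjugate or cleave drugs, the beta-binomial test called 3 of 59 loci of conjugation enzymes, or 5.08%. Of all loci tested it called 1.39%, 1.01% towards 129 and 0.378% towards Cas. Sult2a8, a sulfotransferase gene, had 732 interactions on 129 and 72 on Cas, and the N-acetyltransferase gene Nat3 1737 and 307. Nat8f3, with 1 on 129 and 15 on Cas, was called towards Cas. None of 18 carboxylesterase loci was called by the beta-binomial test, with 2 at an unadjusted p below 0.05 and 13 called by the exact binomial test. The vomeronasal receptors, also tandem copies, were the group most like the P450 clusters in depth. Under 100 interactions were found at 15.3% of 190 vomeronasal loci and 14.3% of 63 P450 loci, against 1.46% of all loci. Called were 8 of 183 vomeronasal loci tested, 4 in each direction, with Vmn2r68 (77 on 129 and 8 on Cas) and Vmn1r173 (7 and 36) as examples. The 453 olfactory receptor loci had a median count of 4096, with 16 called, all towards 129. Shares called were thus 4.37% of vomeronasal and 3.53% of olfactory receptor loci. The exact binomial test called 69.5% of conjugation enzyme, 54.6% of vomeronasal and 68.4% of olfactory receptor loci, beside 67.2% of all loci. An unadjusted beta-binomial p below 0.05 was found at 8, 26 and 47 loci of these lists, and at 853 of all 15094. No difference between these lists and the P450 clusters was tested.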

How the data were processed

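The analysed table was deposited with whole-number interaction counts per 50 kb window and allele, without normalisation. It also has 1 interaction distance per window and allele, read here as bp. Bowtie2 and mm10 are named per the submitters' processing notes. Versions, allele assignment, filters, duplicate removal and the pooling of both samples are not given in the sources used here. Because more interactions were on 129 over all windows, counts were compared with that 129 share, 57.6%, and not with an equal split.

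Genes were placed by RefSeq on GRCm38, and a gene's count is the sum over the windows that its body touches. The members and lists were chosen with earlier results of these data known. Units with 10 or more interactions were tested by a two-sided beta-binomial test with 1 overdispersion, 0.0165 for windows and 0.0109 for loci, equal to standard deviations of the 129 share of 6.35 and 5.16 percentage points. It was tested on simulated data. Floors set an allele at 0 to 3 interactions. Promoters were aligned end to end (match 1, mismatch -1, gap opening -2, extension -0.5).

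Named were the called loci, those with 1 allele at 0 and 10 or more on the other, the 5 per direction with the largest ratio at 30 or more interactions, the highest and lowest count per cluster, 3 windows per direction by distance ratio, and up to 3 called genes per direction of other lists. Other members are given for completeness. Scripts used scipy 1.17.1, numpy 2.4.6, Biopython 1.88, pandas 2.3.3, numba 0.67.0 and matplotlib 3.10.9 under Python 3.11.15. Alternatives were other tests, null shares, count minimums, pseudocounts, centres, start windows alone and each cluster left out.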

Additional observations from a re-analysis of the deposited data

How the results depend on the processing

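Calls of P450 loci depended on the test and the minimum count. Against 2 of 61 loci called and 1.39% of all loci, the exact binomial test called 30, beside 67.2% of all loci. An overdispersion estimated in each of 4 bands of loci by count called 1, beside 1.16% of all. A null share of 0.5 called 0, beside 0.318%. A minimum of 30 interactions called 1 of 59, beside 1.33%, and a minimum of 100 called 0 of 54, beside 1.23%. Leaving out the Cyp3a genes left 0 of 54, as it had to, since both called loci are Cyp3a genes. With start windows alone 3 of 48 were called, Cyp3a44, Cyp3a41a and Cyp2b9, beside 1.73% of all 10296 tested. By the 1.5-fold rule for counts that is no change. Against 3 of 81 P450 windows called and 0.944% of all windows, the exact binomial test called 34, beside 51.4%. A null share of 0.5 called 1, beside 0.274%, and a minimum of 100 interactions called 0 of 65, beside 0.817%. With a null share of 0.5 the overdispersion was estimated anew around that share, so both changed together. The part of each in the losses was not tested. The Cyp2g1 and Cyp2a5 locus, never called by the beta-binomial test, changed sign with a null share of 0.5 (adjusted p = 0.954). The start window of Cyp3a44 stayed called in all 6 alternatives that could test it (adjusted p from 1.39e-11 to 0.000454). The exact binomial test and a threshold of 0.1 are less strict than the main test, so they could not have lost this window. The minimum of 100 interactions left it out. The 129 share of 58.5% moved to 59% without the Cyp2d genes, 57.8% without Cyp2j, 57.9% without Cyp4f and 58.9% without Cyp4f18. The median locus ratio stayed between -0.00 and 0.07 in 19 alternatives, and the median distance ratio at 0.05 in 2. No paired analysis was possible because the table holds pooled columns, and no replicate could be left out for the same reason. The alternative that needed a genome sequence, leaving out windows with repeated sequence, was not run. Depth limits the P450 windows with under 100 interactions most.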
